A study of Homo sapiens with 36 samples.

Results

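The result described here is a difference between differences: how RNA levels changed over the first 3 days of neuronal induction in RAI1 knockout cells, minus how they changed in wild-type cells. It was taken, gene by gene, from 16 of the series' 36 libraries, chosen by the genotype and day in their titles. All were made from H9, an established human embryonic stem cell line that carries a doxycycline-driven NGN2 (NEUROG2) transgene. The wild-type (WT) cells were unedited at RAI1, and the knockout (KO) cells were labelled RAI1 Knockout, with both alleles disrupted. Each genotype was sampled at day 0, as stem cells before induction, and at day 3 of induction, with 4 libraries labelled as biological replicates in each of the 4 groups. Before induction the cells grew in mTeSR Plus on Geltrex and were passaged with Accutase and a ROCK inhibitor, and after it in Neurobasal-A with B27, CultureOne, GlutaMAX, GDNF and NT3. All of these libraries carried the same batch label and were paired-end libraries of total RNA depleted of ribosomal RNA. How many edited clones stood behind the KO label is not given in the sources used here, so a property of a clone and a property of the genotype cannot be told apart, and the p-values measure only the spread between these samples. The remaining 20 libraries, from heterozygous (HET) cells and from day 7, entered the fit for its estimate of the spread and are compared where stated.

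NEUROG2 is a proneural basic helix-loop-helix transcription factor that, when forced on in pluripotent cells, turns them into glutamatergic neurons. It acts through a cascade in which factors of the EBF, INSM, NHLH, NEUROD and MYT1 families follow it, Notch ligands such as DLL1 and DLL3 signal to neighbouring cells, and the cells leave the cell cycle as they begin to make the neuronal cytoskeleton, vesicles and channels. RAI1 is a nuclear protein that binds nucleosomes and regulates transcription, and its loss or mutation causes Smith-Magenis syndrome, a neurodevelopmental disorder with a disturbed sleep rhythm.

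The quantity reported for each gene is (KO day 3 minus KO day 0) minus (WT day 3 minus WT day 0) in log2 units, called the difference of changes. A positive value means that the gene moved further up, or less far down, in KO than in WT. Levels are counts scaled to a common library size (CPM, per 1e6 counts), which are comparable between libraries but not between genes of different length. A gene was called when the Benjamini-Hochberg adjusted p of edgeR's quasi-likelihood test was under 0.05. Since the use of strand in counting is not given in the sources used here, reads of genes that overlap another on the opposite strand (among those below CNTN4, GNG3, KLC1, GRIK5, GDF11, TCF7 and PEG10) may not all be their own. In bulk RNA, more cells of a type and more RNA per cell cannot be told apart.

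The 16 libraries held 27.2 to 51.3 M counts each (M, a factor of 1e6), and replicates of a group correlated across genes with r between 0.961 and 0.988. RAI1 itself (chr17:17681473-17811453, plus strand, GRCh38) was measured at 22.2, 40.2, 39.0 and 32.4 CPM in the WT day-0 libraries and at 23.6, 46.2, 48.8 and 29.8 CPM in the KO day-0 libraries. At day 3 it stood at 79.1, 66.9, 47.0 and 41.7 CPM in WT and at 76.5, 107, 65.6 and 37.9 CPM in KO, so the genotypes overlapped on both days and the difference of changes was 0.14 log2 (SE 0.40, adjusted p 0.877). A count over the whole gene does not show whether its reading frame is disrupted, so it checks neither label. The summed markers matched the days: 20 pluripotency genes summed to 3705 to 4800 CPM in WT and 3220 to 6718 CPM in KO at day 0, and to 536 to 636 CPM and 830 to 973 CPM at day 3. Most of the day-3 sums came from LIN28A (means of 154.5 CPM in WT and 273.6 CPM in KO) and LIN28B (237.1 and 387.5 CPM). LIN28B was no lower than at day 0 (232.7 and 245.8 CPM). POU5F1 ended at 10.4 CPM in WT and 2.33 CPM in KO, so the higher KO sum does not hold for each factor. The 22 pan-neuronal genes summed to 828 to 1230 CPM over the 8 day-0 libraries, to 2108 to 2517 CPM in WT at day 3 and to 7652 to 11682 CPM in KO at day 3.

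The KO day-3 libraries were not alike. Replicate 4 was the lowest of the 4 for 63.2% of the genes called higher and the highest for 51.6% of those called lower, so it lay nearest to WT. Replicate 1 was the lowest for 67.0% of the genes called lower. The share of reads from 5 small structural RNAs was 4.92%, 3.54%, 14.9% and 18.75% in the KO day-3 replicates 1 to 4 and 10.37%, 8.99%, 19.6% and 18.12% in the WT ones. With that share as a covariate 2672 genes were called, beside 2118 without it, and 2064 with the small RNAs left out of the libraries, of which 2035 were among the 2118.

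Of 24764 genes tested, 2118 (8.55%) changed differently in KO and WT. The change was more positive in KO for 1329 genes (5.37% of those tested) and more negative for 789 (3.19%). The median over the genes called higher was 1.40 log2, and over those called lower -1.59 log2, where the median over all tested genes was -0.02. A difference of at least 1 log2 was reached by 967 and 643 of them, and of at least 2 log2 by 407 and 257. The genotypes mostly started level at these genes, about as often as at all genes tested. The day-0 difference was under 0.5 log2 for 1076 of the 1329 genes called higher (81.0%) and for 606 of the 789 called lower (76.8%). Over all genes tested the share was 78.3%. Protein-coding genes made up 90.6% of the higher and 89.9% of the lower genes with a known biotype, beside 69.1% of all. The called genes also had higher levels. The median of the highest group mean was 50.5 CPM for those called higher, 22.1 CPM for those called lower and 7.08 CPM for all tested. The shares over all tested genes were not matched for level. The protein-coding genes called higher spanned a median of 61.3 kb of genome, beside 31.5 kb for those called lower and 33.1 kb for all tested.

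The called genes fell into classes by the fitted change of each genotype. Among the 1329 called higher, 387 moved up by at least 1 log2 in KO and by less than 1 log2 in WT, and 176 moved down by at least 1 log2 in WT and by less than that in KO. Both genotypes moved up for 325 and both down for 69, while 52 moved in opposite directions and 320 by less than 1 log2 in each. Among the 789 called lower, the largest class was the 298 genes that moved down in KO and by less than 1 log2 in WT. A further 170 moved down in both, 114 moved up in WT and by less than 1 log2 in KO, 53 moved up in both, 33 moved up in WT and down in KO, and 121 moved by less than 1 log2 in each. The plot of KO change against WT change shows these genes on either side of the line of equal change.

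**Figure D1:**
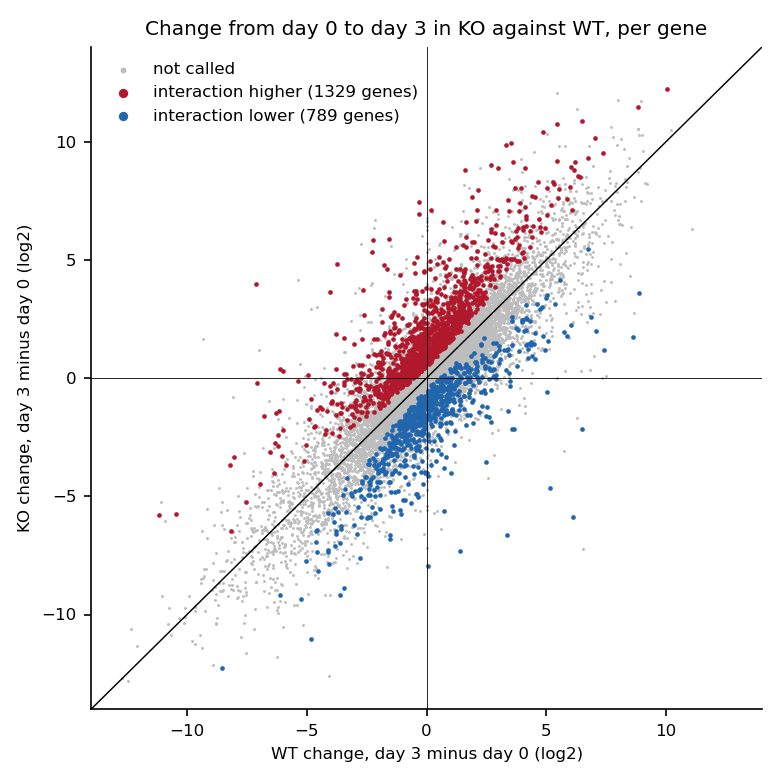
Fitted change from day 0 to day 3 in WT (x axis, log2) against that in KO (y axis, log2), 1 point for each of 24764 genes. The 1329 genes called higher in KO lie above the diagonal of equal change and the 789 called lower lie below it, and many of both sit near 0 on the WT axis.

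The count depended on single libraries, on the scale and on the treatment of replicate numbers. Without KO day-3 replicate 1 it was 1334 genes and without KO day-3 replicate 4 it was 3175, and limma on log2(TPM + 1) called 321, with the median of all genes then at 0.165 log2. With the replicate numbers as a block within each day, chosen after seeing the data, it was 3718.

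The 12 genes with the largest positive difference of changes, among those with at least 5 CPM in some group and over 3 counts in each of the 16 libraries, held ion channels and their subunits, adhesion and guidance receptors and a zinc-finger factor of the proneural cascade. For the 2 highest with a RefSeq entry, LRRC55 and DCC, the promoter window is shown to give the sequence at the start of genes whose change differed so widely. It runs from 250 bases before to 50 after the RefSeq start (GRCh38.p14), 5′ to 3′ on the gene's strand, at chr11:57181703-57182002 (plus) and chr18:52339947-52340246 (plus), and capitals mark the E-boxes CAGCTG and CAGATG, the motifs that proneural factors bind.
LRRC55: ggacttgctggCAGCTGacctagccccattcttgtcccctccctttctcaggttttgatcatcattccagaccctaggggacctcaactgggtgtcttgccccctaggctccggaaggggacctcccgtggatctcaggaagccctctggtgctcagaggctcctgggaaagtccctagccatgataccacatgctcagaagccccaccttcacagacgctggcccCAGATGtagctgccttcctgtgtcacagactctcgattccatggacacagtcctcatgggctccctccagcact
DCC: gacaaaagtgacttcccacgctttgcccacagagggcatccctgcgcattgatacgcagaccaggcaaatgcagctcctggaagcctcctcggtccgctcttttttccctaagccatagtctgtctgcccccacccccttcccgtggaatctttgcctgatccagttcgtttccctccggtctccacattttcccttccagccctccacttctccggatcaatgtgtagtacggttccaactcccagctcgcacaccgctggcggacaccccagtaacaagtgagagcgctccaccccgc
The LRRC55 window held both motifs and that of DCC held neither of them. An E-box of either kind, on either strand, was found in the windows of 26.2% of 14206 tested genes, of 26.7% of 947 genes called higher and of 142 of 567 called lower.

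LRRC55, an auxiliary subunit of large-conductance calcium-activated potassium channels, stood at 40.7, 33.9, 35.1 and 46.8 CPM in the WT stem cells and at 0.461, 1.71, 1.99 and 0.947 CPM in WT at day 3. In KO it stood at 22.6, 30, 33.2 and 45.9 CPM at day 0 and at 46.5, 51.3, 32.2 and 13.5 CPM at day 3. WT thus lost the transcript while KO kept it, and the day-3 groups were far apart. The difference of changes was 5.07 log2 (SE 0.68, adjusted p 1.24e-05).

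DCC, the netrin-1 receptor that guides commissural axons, was level in WT, at 3.55, 5.32, 2.85 and 3.79 CPM at day 0 and at 1.99, 3.6, 4.79 and 4.16 CPM at day 3. In KO it went from 2.46, 4.37, 4.74 and 2.64 CPM to 80.7, 125, 64.2 and 43.7 CPM. Each KO day-3 library lay above all 12 others, and the difference of changes was 4.57 log2 (SE 0.53, adjusted p 1.93e-06).

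PCDH9, a protocadherin of developing neurons, behaved alike, with 4.5 to 8.57 CPM in WT and 76.8 to 209 CPM in KO at day 3 after 4.18 to 17.1 and 2.35 to 16.4 CPM at day 0. Its difference of changes was 4.21 log2 (SE 0.68, adjusted p 0.000144). NPTX1, a secreted pentraxin that clusters AMPA receptors, was the exception at the start, since its KO stem cells (1.81 to 2.86 CPM) lay below the WT ones (3.8 to 18.7 CPM) by 2.32 log2 (adjusted p 0.000592). At day 3 it stood at 10.8, 16.6, 19.6 and 15.6 CPM in WT and at 74.8, 70.1, 64.1 and 53.9 CPM in KO, a difference of changes of 4.39 log2 (adjusted p 9.37e-06) that includes the lower start. ST18, a zinc-finger factor of the MYT1 family, went from 0.193 to 2.8 CPM in WT to 1.75 to 12.2 CPM, and in KO from 0.189 to 1.32 CPM to 79.2 to 144 CPM (difference of changes 5.04 log2, SE 0.92, adjusted p 0.0006). Its KO minus WT difference was -1.02 log2 at day 0, with overlapping levels, and 4.02 log2 at day 3.

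Of the other 7, P2RX3, the ATP-gated channel of sensory neurons, reached 4.92 to 12.1 CPM in WT and 123 to 253 CPM in KO at day 3 (4.35 log2). ASIC4, of the acid-sensing channel family, reached 1.11 to 2.36 and 7.09 to 40.3 CPM (4.30 log2). LDB3, a PDZ-LIM protein best known from the muscle Z-disc, reached 5.52 to 14.5 and 117 to 174 CPM (4.22 log2), and KLHL35 reached 2.52 to 6.15 and 39.6 to 56.6 CPM (4.33 log2). In all 4 both genotypes started under 2 CPM, and the day-3 libraries of WT and KO did not overlap. IGSF11, an immunoglobulin adhesion molecule of synapses, and ADAMTS5, a protease that cuts aggrecan, moved down in WT and up in KO. IGSF11 stood at 0.921 to 2.61 CPM in WT and at 17.8 to 59.8 CPM in KO at day 3 (4.15 log2). ADAMTS5 stood at 0.184 to 0.407 CPM in WT and at 28.4, 7.27, 9.4 and 6.82 CPM in KO (4.79 log2, SE 0.76, adjusted p 0.000117). TNFAIP2 kept its stem cell level in KO (14.6 to 32.2 CPM, then 9.02 to 56.6 CPM) while WT went from 9.24 to 18.6 CPM to 0.479 to 1.92 CPM (4.18 log2, SE 1.07, adjusted p 0.0121).

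The 12 most negative genes held secreted signals, surface proteins and enzymes. The promoter windows of the 2 lowest with a RefSeq entry, CD9 and RARRES2, are shown for comparison with those above, at chr12:6199696-6199995 (plus) and chr7:150341580-150341879 (minus) in the same build, with the same E-boxes in capitals (CATCTG is CAGATG on the other strand).
CD9: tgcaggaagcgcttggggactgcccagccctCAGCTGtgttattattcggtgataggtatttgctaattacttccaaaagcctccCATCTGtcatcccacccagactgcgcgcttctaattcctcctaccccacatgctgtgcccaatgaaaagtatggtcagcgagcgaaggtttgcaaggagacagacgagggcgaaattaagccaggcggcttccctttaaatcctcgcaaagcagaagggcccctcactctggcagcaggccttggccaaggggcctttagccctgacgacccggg
RARRES2: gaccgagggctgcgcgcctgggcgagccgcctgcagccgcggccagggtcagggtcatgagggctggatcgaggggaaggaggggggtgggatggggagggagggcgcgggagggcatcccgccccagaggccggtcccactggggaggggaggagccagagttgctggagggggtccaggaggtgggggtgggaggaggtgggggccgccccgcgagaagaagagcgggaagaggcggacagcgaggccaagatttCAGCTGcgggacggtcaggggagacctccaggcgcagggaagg
Both windows held CAGCTG and that of CD9 also CAGATG on the other strand. Of the 24 genes, 16 had a window, and 4 of those called higher and 4 of those called lower held an E-box.

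BMP3, a ligand of the BMP family that opposes its other members, had the most negative value. It went from 1.68, 1.26, 3.86 and 2.67 CPM in WT at day 0 to 398, 159, 196 and 97.4 CPM at day 3. In KO it went from 0.405, 1.14, 3.16 and 2.67 CPM to 0.575, 0.304, 0.28 and 0.469 CPM. Only WT at day 3 had the transcript above 4 CPM, and the difference of changes was -8.65 log2 (SE 1.02, adjusted p 2.1e-06).

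CD9, a tetraspanin of stem cell membranes, stood at 40.8, 31.4, 31.6 and 43.2 CPM in WT and at 61.3, 21.9, 31.3 and 42.8 CPM in KO at day 0. At day 3 it stood at 9.76, 15.1, 19.1 and 27 CPM in WT and at 0.551, 0.434, 0.839 and 1.09 CPM in KO. Both genotypes moved down, KO much further, and the difference of changes was -4.71 log2 (SE 0.61, adjusted p 8.83e-06). RARRES2, which encodes the chemoattractant chemerin, moved in the same way, to 2.45 to 11.3 CPM in WT and 0.108 to 1.31 CPM in KO from 11.3 to 20.1 and 12.4 to 34.9 CPM (-4.19 log2, SE 1.08, adjusted p 0.0132). SLFN12, a schlafen protein, did so as well, with 2.13 to 2.88 CPM in WT and 0.0958 to 0.28 CPM in KO at day 3 (-3.41 log2).

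MICA, a stress-induced ligand of the NKG2D receptor, and HERC5, the ligase that attaches ISG15, stayed in WT and left in KO. MICA stood at 4.93 to 13.4 CPM in WT and at 0.287, 0.369, 0.168 and 1.8 CPM in KO at day 3 (-4.01 log2, SE 1.03, adjusted p 0.0126). HERC5 stood at 5.62 to 13.2 CPM and at 0.431 to 1.06 CPM (-3.84 log2).

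A further 5 were much higher in WT at day 3 than at day 0, and in KO were far less so or lower. CNTN4, a contactin of axons, went from 0.99 to 1.43 CPM to 62.2 to 103 CPM in WT, and in KO from 1.65 to 2.19 CPM to 10.9, 10.7, 8.36 and 4.18 CPM (-3.81 log2, SE 0.52, adjusted p 1.64e-05). ADSS2, an enzyme of AMP synthesis, had the smallest adjusted p of the 24. It went from 68.7 to 88.2 CPM to 248, 608, 486 and 412 CPM in WT, and from 74.7 to 99.5 CPM to 33.8, 36.8, 40.9 and 37.4 CPM in KO (-3.75 log2, SE 0.25, adjusted p 1.47e-11). The Ras-association protein RASSF8 went from 61.3 to 71.2 CPM to 248 to 385 CPM in WT and from 64.4 to 85.7 CPM to 25.1 to 39.9 CPM in KO (-3.50 log2, SE 0.31, adjusted p 1.83e-08). CEBPD, a bZIP transcription factor, reached 10.3 to 22.8 CPM in WT and 0.803 to 3.61 CPM in KO (-3.71 log2), and TNFRSF1B, a receptor of tumour necrosis factor, reached 21.8 to 61.5 and 1.51 to 6.23 CPM (-3.51 log2).

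OAF was the weakest of the 24. Its value of -3.59 log2 (SE 1.05, adjusted p 0.0281) leaned on KO day-0 replicate 1, which held 23.4 CPM beside 2.01 to 3.23 CPM in the other replicates, and without that library it was -2.06 log2 (adjusted p 0.19). It was the only 1 of the 24 to lose its call in any of the 16 fits that each left out 1 library.

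**Figure D2:**
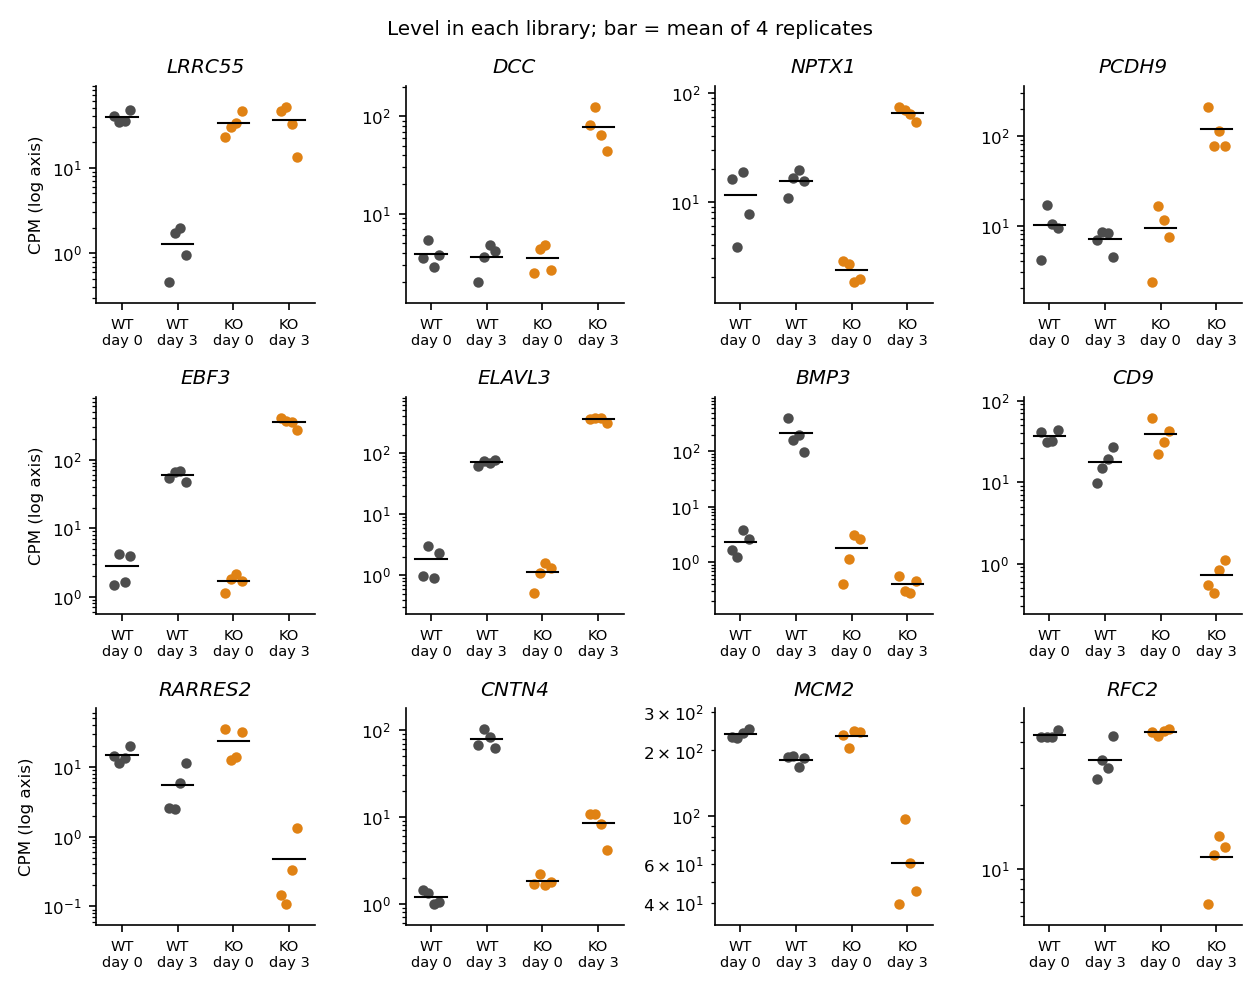
CPM on a log axis in each of the 16 libraries (points) for 12 genes of the text, with WT and KO at day 0 and day 3 side by side and a bar at the mean of 4. For LRRC55, DCC, NPTX1, PCDH9, EBF3 and ELAVL3 the KO day-3 points lie above the WT day-3 points, and for BMP3, CD9, RARRES2, CNTN4, MCM2 and RFC2 below them.

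Among the called genes, 64 called higher and 53 called lower had at least 1 group whose libraries all held 3 counts or fewer (0.0553 to 0.101 CPM, depending on depth), and of these only levels are given. INSM2, a zinc-finger relative of INSM1, stood at 0.239 to 0.79 CPM in WT and at 22.3 to 28.7 CPM in KO at day 3. NRN1, the neurite growth factor neuritin, stood at 2.73 to 7.78 CPM and at 20.8 to 65.9 CPM. PTGDS, a prostaglandin D2 synthase, stood at 0.147 to 0.455 and 11.5 to 25.7 CPM, and the sulfatase ARSF at 0.497 to 2.54 and 17.1 to 51.4 CPM. Each of these 4 was near or at 0 in the KO stem cells, and KO and WT did not overlap at day 3. F13A1, a coagulation factor subunit, was read 0 times in the WT day-3 libraries and at 0.028 to 0.198 CPM in the KO ones after 2.75 to 13.2 CPM at day 0. On the other side, GDF10 and CA2 ended at 0.0247 to 0.0718 and 0.0239 to 0.0741 CPM in KO, and at 0.105 to 0.203 and 0.045 to 0.447 CPM in WT. The noncoding RNAs LINC02693 and LINC01515, also called lower, were already present in KO stem cells (32.7 to 41.3 and 7.85 to 12.1 CPM) and nearly absent from WT ones. That day-0 difference enters their values. HOXB2 rested on KO day-0 replicate 1, with 7.74 CPM beside 0.572 to 1.09 CPM in the others, and its call was lost in 10 of the 16 fits that left out 1 library. The call of CA2 was lost in 9 such fits (adjusted p up to 0.268, without WT day-3 replicate 4) and that of ARSF in 4 (up to 0.145, without WT day-0 replicate 4).

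Gene groups were read from 46 lists of functions and 8 lists of cell type markers. The count of each list is to be read beside the 8.55% of all tested genes that were called (5.37% higher and 3.19% lower). Over all these lists 226 members were called, and 140 of these stayed called in each of the 16 fits without 1 library. The chart of called shares shows neuronal lists extending to the right and DNA replication to the left of the shares over all genes.

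**Figure D3:**
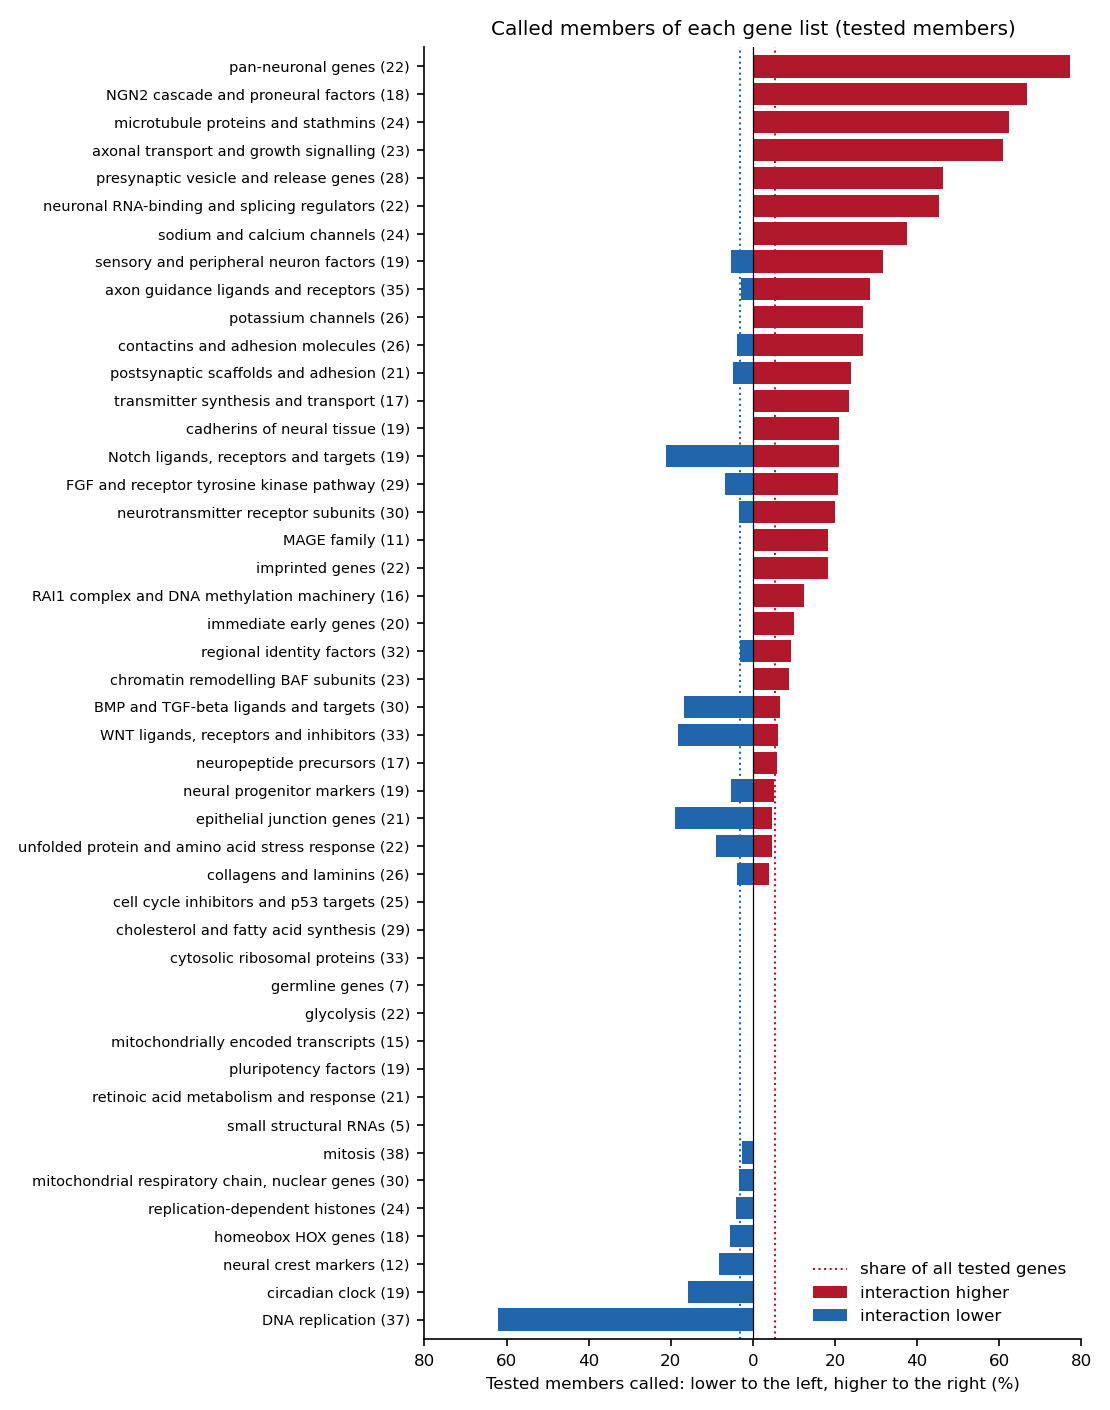
Share of each list's tested members (percent) called higher in KO (bars to the right) or lower (bars to the left), for 46 lists of functions, with dotted lines at the shares over all tested genes. The pan-neuronal genes (17 of 22) and the proneural cascade (12 of 18) reach furthest right, and DNA replication (23 of 37) reaches furthest left.

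In the proneural cascade, 12 of 18 tested factors, NEUROG2 among them, were called higher and 0 lower, with a median of 3.17 log2 beside -0.02 over all genes. edgeR called 13 higher and 0 lower at an unadjusted p under 0.05, DESeq2 13 and 0, and limma on log2(TPM + 1) 10 and 0. The inducer itself moved otherwise than its targets. NEUROG2 stood at 27.8, 32.3, 14.6 and 10.9 CPM in the WT stem cells and at 2.24, 2.08, 1.61 and 1.55 CPM in the KO ones, which was lower by 3.51 log2 (adjusted p 5.67e-10). At day 3 it stood at 23402, 20433, 19905 and 25590 CPM in WT and at 8667, 7867, 8241 and 11005 CPM in KO. Its level was therefore lower in KO on both days without overlap, although its difference of changes was positive, at 2.19 log2 (SE 0.39, adjusted p 0.000499), because the day-0 gap was wider than the day-3 gap of -1.32 log2. These counts do not separate the transgene from the chromosomal gene. A tdTomato reporter sequence in the count table stood at 132 to 170 CPM in the WT and 35.2 to 51.1 CPM in the KO stem cells, and at 13.3 to 35.7 and 7.16 to 18.5 CPM at day 3. The part that the transgene's own level played in the other genes was not tested.

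EBF3, an early B-cell factor family member that acts in neuronal differentiation, went from 1.48, 4.17, 1.65 and 3.88 CPM to 54.9, 66.7, 68.3 and 47 CPM in WT. In KO it went from 1.13, 1.78, 2.14 and 1.67 CPM to 406, 372, 359 and 271 CPM. Both genotypes induced it from overlapping day-0 levels, and each KO day-3 library held more than any WT one (3.31 log2, SE 0.49, adjusted p 4.59e-05). The KO minus WT difference of EBF3 was -0.74 log2 at day 0 and 2.57 log2 at day 3. EBF2 reached 41.7 to 75 CPM in WT and 191 to 434 CPM in KO (3.66 log2). Its KO minus WT difference was -1.40 log2 at day 0 and 2.26 log2 at day 3, so a part of its value came from a lower KO start. INSM1, a zinc-finger repressor of newborn neurons, reached 25.5 to 49.5 CPM and 244 to 299 CPM (3.31 log2, SE 0.55, adjusted p 0.000203). For INSM1, KO minus WT was -0.59 log2 at day 0 and 2.73 log2 at day 3. The other called factors, named after their values were seen, had positive values too. NHLH1 reached a mean of 167 CPM in WT and 775 CPM in KO (3.14 log2), and its KO minus WT was -0.93 log2 at day 0 and 2.21 log2 at day 3. MYT1 reached 9.93 and 119 CPM (3.47 log2) and EBF1 54.4 and 294 CPM (2.24 log2). NHLH2 reached 5.07 and 267 CPM (3.21 log2), a call that was lost in 10 of the 16 fits without 1 library. NEUROD4 and NEUROD1 reached 226 and 423 CPM, and 22.3 and 90.9 CPM (2.58 and 4.38 log2). For these 2, KO minus WT was -1.68 and -2.35 log2 at day 0 and 0.90 and 2.03 log2 at day 3. A large part of both values thus came from a lower KO start. MYT1L, which represses non-neuronal genes, reached 0.365 and 6.79 CPM (4.20 log2). The 2 cascade genes with the smallest values were HES6, at 709 and 668 CPM at day 3 (0.06 log2, adjusted p 0.989), and BTG2, an antiproliferative gene, at 140 and 192 CPM (-0.04 log2, adjusted p 0.989). RefSeq windows with an E-box made up 7 of 15 in this list (46.7%) and 5 of 12 among the pan-neuronal genes (41.7%), beside the 26.2% of tested genes given above.

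Notch genes were called in both directions, 4 higher and 4 lower of 19 tested (median 0.39 log2), and ligands, receptors and targets each held values of both signs. JAG2, a ligand, stood at 3.5, 6.07, 7.51 and 11.6 CPM in WT and at 42.7, 46.4, 33 and 34.5 CPM in KO at day 3, after 4.62 to 8.23 CPM in all stem cells. Its difference of changes was 2.17 log2 (SE 0.40, adjusted p 0.000662), with no overlap at day 3. The ligand DLL4 reached 20.9 to 28.8 CPM in WT and 70.1 to 87.9 CPM in KO (3.16 log2). Among the ligands named after their values were seen, DLL3 reached means of 1096 CPM in WT and 1513 CPM in KO (1.70 log2), while DLL1 was called lower, at 167 and 39.9 CPM (-2.38 log2). A lower KO start entered the values of DLL4 and DLL3. Their KO minus WT differences were -1.54 and -1.23 log2 at day 0, and 1.62 and 0.47 log2 at day 3. Of the receptors, NOTCH2 and NOTCH3 were called lower. NOTCH2 went from 239 to 339 CPM to 148, 128, 82.7 and 119 CPM in WT, and from 246 to 344 CPM to 18.5, 46.9, 23.4 and 42.6 CPM in KO (-1.90 log2, SE 0.35, adjusted p 0.000659). NOTCH3 went from 232 to 347 CPM to 12.1 to 28.3 CPM in WT and from 244 to 391 CPM to 3.57 to 8.83 CPM in KO (-1.86 log2). NOTCH1, named after its values were seen, ended at means of 138 and 181 CPM with a difference of changes of 0.36 log2 (adjusted p 0.756). The targets HES1 and HES5, likewise named afterwards, went from 15.03 to 5.21 CPM and from 2.59 to 0.107 CPM in WT, and from 16.1 to 0.162 CPM and from 3.38 to 1.33 CPM in KO (-5.09 and 3.25 log2). Without single libraries the calls of DLL1, DLL3, HES1 and HES5 held in 8, 9, 13 and 11 of 16 fits. The count of 8 was 5 without WT day-3 replicate 4, and limma on log2(TPM + 1) called 3 higher and 0 lower.

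Of the 22 pan-neuronal genes, 17 were called higher and 0 lower, and all 22 had positive values (median 2.16 log2). At an unadjusted p under 0.05 edgeR called 22 higher and 0 lower, DESeq2 called 18 and 0 after adjustment, and limma on log2(TPM + 1) called 6 and 0. ELAVL3, a neuronal RNA-binding protein, went from 0.99, 3.05, 0.919 and 2.34 CPM to 61, 74.9, 68.6 and 78 CPM in WT, and from 0.513, 1.11, 1.61 and 1.34 CPM to 356, 374, 374 and 310 CPM in KO. The KO day-3 replicates were close to each other and all lay above the WT ones (3.01 log2, SE 0.41, adjusted p 1.31e-05). For ELAVL3, KO minus WT was -0.69 log2 at day 0 and 2.32 log2 at day 3. DCX, the microtubule-binding doublecortin of migrating neurons, stood at 206, 357, 298 and 185 CPM in WT and at 2460, 2800, 1843 and 945 CPM in KO at day 3 (2.92 log2, SE 0.55, adjusted p 0.00093). NCAM1, a neural cell adhesion molecule, reached 160 to 218 CPM and 543 to 931 CPM (1.75 log2). GNG3, a G protein subunit of neurons, stayed at 1.38 to 3.4 CPM in WT and reached 16.1 to 37.7 CPM in KO (3.25 log2). The neurofilament genes NEFM and NEFL, named after their values were seen, reached means of 28.5 and 92.7 CPM in WT and 390 and 772 CPM in KO (2.54 and 1.88 log2), and the call of NEFL was lost in 8 of the 16 fits without 1 library.

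The cytoskeleton and its transport moved with them. Among microtubule proteins and stathmins, 15 of 24 were called higher and 0 lower (median 1.35 log2; unadjusted p under 0.05 by edgeR, 18 higher and 1 lower; DESeq2, 16 and 0). MAPT, which encodes tau, stood at 4.48, 9.94, 10 and 9.76 CPM in WT and at 56.9, 54.2, 43.4 and 42.6 CPM in KO at day 3, after 1.57 to 3.4 CPM in all stem cells (2.88 log2, SE 0.40, adjusted p 1.79e-05). MAP6, a protein that stabilises microtubules, reached 18.4 to 47.3 CPM and 156 to 216 CPM (2.13 log2). Of the 23 genes of axonal transport and growth, 14 were called higher and 0 lower (median 1.21 log2; unadjusted, 22 and 0; DESeq2, 15 and 0). The kinesin heavy chains KIF5A and KIF5C reached 5.75 to 18 and 189 to 264 CPM in WT and 62.7 to 166 and 484 to 994 CPM in KO (2.92 and 1.55 log2). Their light chain KLC1 reached 140 to 150 CPM and 251 to 378 CPM (1.09 log2, SE 0.20, adjusted p 0.000741). DPYSL3, a collapsin response mediator of growth cones, moved down in WT, from 494 to 713 CPM to 49.5 to 95.6 CPM, and in KO from 768 to 998 CPM to 779, 745, 498 and 356 CPM (2.28 log2). On log2(TPM + 1), limma called 4 of the microtubule genes and 0 of the transport genes.

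Neuronal splicing and RNA-binding regulators included 10 called higher and 0 lower of 22 (median 0.84 log2; unadjusted, 12 and 1; DESeq2, 10 and 0; limma on log2(TPM + 1), 2 and 0). NOVA2, a splicing factor of cortical neurons, stayed near its level in WT, at 20.8 to 50 CPM and then 48.9 to 57.5 CPM. In KO it went from 38.6 to 70.9 CPM to 326, 389, 265 and 250 CPM (1.87 log2, SE 0.32, adjusted p 0.000251). SRRM3, which drives the inclusion of microexons, reached 9.68 to 17.5 CPM in WT and 33.5 to 51.7 CPM in KO (1.72 log2).

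At the synapse, 13 of 28 presynaptic genes were called higher and 0 lower (median 1.01 log2; unadjusted, 18 and 0; DESeq2, 14 and 0; limma on log2(TPM + 1), 2 and 0). SYT1, the calcium sensor of vesicle fusion, was steady in WT at 37.9 to 43.3 CPM and then 35.8 to 55.4 CPM, and in KO went from 37.8 to 52.6 CPM to 232, 235, 172 and 111 CPM (1.80 log2, SE 0.38, adjusted p 0.00268). The vesicle protein SYT11, which started higher in KO (6.99 to 13.6 CPM) than in WT (2.2 to 4.97 CPM), reached 13 to 18.9 and 87.4 to 260 CPM (2.06 log2) and the active zone scaffold RIMS1 2.1 to 2.78 and 9.71 to 14.9 CPM (1.81 log2). Postsynaptic genes had 5 called higher and 1 lower of 21 (median 0.49 log2). LRRTM3, a leucine-rich repeat adhesion molecule of synapses, had the largest value in the list, at 0.0921, 0.27, 0.239 and 0.0263 CPM in WT and 38, 25.3, 24 and 56.7 CPM in KO at day 3 (6.54 log2, SE 0.71, adjusted p 1.01e-06). It lies within CTNNA3 on the opposite strand, so this holds for its reads too. ARC, an activity-regulated cytoskeletal gene, went from 9.82 to 25.8 CPM to 1.03 to 2.92 CPM in WT and from 8.1 to 21.5 CPM to 9.49 to 21.6 CPM in KO (3.62 log2). The single gene called lower was CAMK2A, named after its values were seen, at means of 5.58 and 2.84 CPM at day 3 (-2.05 log2, adjusted p 0.0317), a call lost in 6 of the 16 fits without 1 library.

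Transmitter receptors had 6 called higher and 1 lower of 30 (median 0.88 log2), and the 7 calls were 4 without KO day-3 replicate 1. GRIK5, a kainate receptor subunit, moved down in WT, from 36.6 to 46.4 CPM to 6.56, 7.78, 9.16 and 9.15 CPM, and less in KO, from 32.2 to 44.3 CPM to 42.2, 30, 27.2 and 25.7 CPM (2.04 log2, SE 0.28, adjusted p 1.76e-05). GRIN2D, an NMDA receptor subunit, and CHRNA4, a nicotinic one, moved up in both. They reached 17.9 to 23.9 and 8.68 to 10.9 CPM in WT, and 62.3 to 94.6 and 25.5 to 68.9 CPM in KO (2.13 and 2.16 log2). In transmitter synthesis and transport, 4 of 17 were called higher and 0 lower (median 0.97 log2; unadjusted, 7 and 1; DESeq2, 4 and 0), and 2 without WT day-0 replicate 4. SLC17A7, the vesicular glutamate transporter VGLUT1, went from under 2 CPM to 166, 129, 131 and 178 CPM in WT and to 304, 198, 253 and 303 CPM in KO (2.15 log2, SE 0.43, adjusted p 0.00154). Most of that value came from a lower KO start, at levels under 2 CPM, and the smaller part from the day-3 gap. TPH2, the serotonin-synthesising enzyme of neurons, was called at levels of 0.111 to 0.191 CPM in WT and 0.911 to 1.45 CPM in KO (4.11 log2). 

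Sodium and calcium channels had 9 of 24 called higher and 0 lower (median 0.95 log2; unadjusted, 13 and 1; DESeq2, 10 and 0; limma on log2(TPM + 1), 0 and 0). CACNA1B, the N-type calcium channel of presynaptic terminals, went from 6.79 to 9.5 CPM to 30.7, 30.9, 32.6 and 31 CPM in WT and from 5.79 to 10 CPM to 133, 156, 97.7 and 82.2 CPM in KO (1.85 log2, SE 0.36, adjusted p 0.00126). CACNA2D1, an auxiliary calcium channel subunit, was steady in WT, at 16.4 to 21.1 CPM at day 3, and reached 69.2 to 139 CPM in KO (1.64 log2). SCN8A, a sodium channel of axon initial segments, reached 57.9 to 75.1 and 100 to 146 CPM (0.74 log2, SE 0.18, adjusted p 0.0072). Potassium channels had 7 of 26 called higher and 0 lower (median 0.90 log2; unadjusted, 12 and 0; DESeq2, 9 and 0). That count was 4 without KO day-0 replicate 1, without KO day-0 replicate 2 or without WT day-3 replicate 4. KCNA2, a voltage-gated channel of axons, stayed at 1.76 to 3.64 CPM in WT and reached 23.9, 22.2, 14.7 and 6.87 CPM in KO (2.40 log2).

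Axon guidance genes had 10 called higher and 1 lower of 35 (median 0.47 log2), and the receptors led. The Slit receptor ROBO1 (chr3:78597240-79767815, minus strand) was level in WT, at 150, 169, 151 and 143 CPM and then 127, 196, 158 and 142 CPM. In KO it went from 171, 221, 187 and 166 CPM to 926, 1066, 875 and 857 CPM, above every other library (2.30 log2, SE 0.31, adjusted p 1.31e-05). Its relative ROBO2 reached 1.01 to 6.84 CPM in WT and 41.9 to 121 CPM in KO from 10.7 to 20 CPM (3.70 log2). SEMA6A, a transmembrane semaphorin, moved down further in WT (to 32.2 to 50.8 CPM) than in KO (to 183 to 279 CPM) from 331 to 493 CPM (2.00 log2). The gene called lower was NTN1, the netrin ligand of DCC, named after its values were seen. Its mean went from 2.32 to 14.1 CPM in WT and from 8.11 to 7.79 CPM in KO (-2.66 log2, SE 0.52, adjusted p 0.00139).

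Among contactins and adhesion molecules, 7 of 26 were called higher and 1 lower, the latter being CNTN4 (median 1.14 log2). NFASC, the neurofascin of the axon initial segment, went from 36 to 49.7 CPM to 172, 165, 160 and 177 CPM in WT and from 20.5 to 32.5 CPM to 580, 711, 492 and 405 CPM in KO (2.26 log2, SE 0.30, adjusted p 9.59e-06). CADM2, a synaptic adhesion molecule, stayed at 4.68 to 11.7 CPM in WT and reached 356, 92.5, 122 and 87.8 CPM in KO (3.98 log2). Neural cadherins had 4 of 19 called higher and 0 lower (median 0.81 log2; unadjusted, 5 and 0; DESeq2, 4 and 0). Besides PCDH9 these included PCDH11X, which moved down from 52.5 to 70.9 CPM to 1.34 to 2.95 CPM in WT and 3.38 to 6.77 CPM in KO (1.62 log2).

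Sensory and peripheral neuron factors had 6 called higher and 1 lower of 19 (median 0.94 log2), and the 7 calls were 4 without KO day-3 replicate 1 or without WT day-0 replicate 4. POU4F1, the BRN3A factor of sensory neurons, stood at 7.81, 1.84, 1.79 and 0.973 CPM in WT and at 121, 63.7, 72 and 28.5 CPM in KO at day 3, after under 0.5 CPM in all stem cells (4.14 log2, SE 1.02, adjusted p 0.00945). NTRK3, the receptor of NT3, which was in the medium, reached 10.6 to 20 CPM in WT and 84.8 to 135 CPM in KO (2.44 log2, SE 0.56, adjusted p 0.00573). RUNX3, called lower, was read 0 times in the KO day-3 libraries and reached no more than 0.316 CPM anywhere. Among regional factors, 3 were called higher and 1 lower of 32 (12.5%, beside 8.55% over all genes, with a median of 0.35 log2). ONECUT2, a cut-homeobox factor of newborn neurons, went from 8.91 to 25.1 CPM to 80.6, 132, 115 and 89.9 CPM in WT and from 6.5 to 18.7 CPM to 1087, 931, 679 and 390 CPM in KO (3.28 log2, SE 0.49, adjusted p 5.04e-05). ONECUT3 stayed at 0.0553 to 0.292 CPM in WT and reached 4.89 to 26.8 CPM in KO (7.46 log2).

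DNA replication was the list with the most lower calls. Of 37 tested genes, 23 were called lower and 0 higher, and all 37 had negative values, with a median of -1.26 log2 and a range from -2.12 to -0.19. At an unadjusted p under 0.05 edgeR called 30 lower and 0 higher, DESeq2 called 27 and 0 after adjustment, and limma on log2(TPM + 1) called 0 in either direction. The list's median on that scale stayed negative, at -0.69 log2. The summed level of the list was 4266 to 5012 CPM in all stem cells, 3213 to 3923 CPM in WT at day 3 and 1038 to 2078 CPM in KO at day 3, so the day-3 groups did not overlap. The promoter windows of GINS2 and MCM3, chosen after their values were seen as list members that hold an E2F motif, show the element through which E2F factors switch on S-phase genes. They lie at chr16:85688905-85689204 (minus) and chr6:52284693-52284992 (minus) in GRCh38.p14, and capitals mark TTTCCCGC or its other strand GCGGGAAA.
GINS2: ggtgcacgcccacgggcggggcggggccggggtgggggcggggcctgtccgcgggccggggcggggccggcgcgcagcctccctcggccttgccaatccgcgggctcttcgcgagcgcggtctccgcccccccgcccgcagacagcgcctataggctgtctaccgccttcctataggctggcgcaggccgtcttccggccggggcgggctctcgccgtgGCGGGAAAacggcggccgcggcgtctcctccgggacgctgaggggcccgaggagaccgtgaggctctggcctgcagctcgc
MCM3: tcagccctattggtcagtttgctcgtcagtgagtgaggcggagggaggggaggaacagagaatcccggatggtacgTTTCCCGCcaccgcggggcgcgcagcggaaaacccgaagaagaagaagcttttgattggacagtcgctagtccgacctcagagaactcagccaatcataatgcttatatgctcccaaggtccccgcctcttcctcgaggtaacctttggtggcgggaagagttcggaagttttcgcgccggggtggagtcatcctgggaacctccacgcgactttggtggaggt
An E2F motif (TTTCCCGC or TTTGGCGC, either strand) was found in the windows of 17 of 32 DNA replication genes (53.1%), of 3.29% of tested genes, of 2.01% of those called higher and of 8.47% of those called lower.

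RFC2, a subunit of the clamp loader of the replication fork, stood at 42.4, 42.3, 42.4 and 45.7 CPM in WT and at 44.6, 42.9, 45.3 and 46.1 CPM in KO at day 0. At day 3 it stood at 26.6, 32.7, 30 and 42.7 CPM in WT and at 6.82, 11.7, 14.4 and 12.7 CPM in KO, so the genotypes parted after a level start (-1.58 log2, SE 0.21, adjusted p 1.05e-05). POLA2, of the polymerase that lays down primers, went to 61.4 to 74.2 CPM in WT and 12.9 to 31.5 CPM in KO from 62.9 to 76.8 CPM (-1.46 log2, SE 0.21, adjusted p 2.8e-05). MCM2, of the replicative helicase, stood at 186, 189, 168 and 184 CPM in WT and at 39.5, 97, 61 and 45.1 CPM in KO at day 3 (-1.55 log2). GINS2, a helicase cofactor, reached 41.3 to 50.2 and 7.81 to 20.8 CPM (-1.64 log2). Among the others, named after their values were seen, PCNA, the sliding clamp, ended at means of 201 and 69.1 CPM (-1.61 log2) and the licensing factor CDT1 at 51.3 and 10.9 CPM, the most negative of the list at -2.12 log2. E2F1 ended at 164 and 114 CPM (-0.45 log2, adjusted p 0.36).

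Mitotic genes and histones leaned the same way with hardly any calls. All 38 mitotic genes were negative (median -0.87 log2), and only NDC80 of the kinetochore was called lower, at 52.4 to 90.3 CPM in WT and 17.3 to 36.5 CPM in KO at day 3 (-1.23 log2, adjusted p 0.0479). Its call was lost in 13 of the 16 fits without 1 library. At an unadjusted p under 0.05 edgeR called 10 mitotic genes lower, and DESeq2 called 1. All 24 replication-dependent histone genes were negative (median -1.60 log2), of which H3C10 alone was called (-1.95 log2, adjusted p 0.0497) and lost in 12 of 16 such fits. Unadjusted, edgeR called 19 of them lower, and DESeq2 called 5. The histone list summed to 4536 to 9798 CPM in WT and 631 to 4284 CPM in KO at day 3. Their transcripts lack a poly(A) tail and were captured here by the total RNA protocol. Of 25 cell cycle inhibitors and p53 targets, edgeR called 0 (2 lower and 0 higher unadjusted; DESeq2, 1 lower), with a median of -0.08 log2.

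Signalling pathways held calls in both directions. WNT genes had 2 called higher and 6 lower of 33 (median -0.89 log2), and the 8 calls were 4 without WT day-3 replicate 4. They were 5 without each of WT day-3 replicate 1, KO day-3 replicates 1 and 3, and WT day-0 replicates 1, 2 and 3. TCF7, a nuclear effector of WNT signals, moved from 8.32 to 8.98 CPM to 24.5, 21.4, 17 and 17.7 CPM in WT and stayed at 7.16 to 11.5 CPM in KO (-1.37 log2, SE 0.24, adjusted p 0.00048). FZD5, a frizzled receptor, went to 4.43 to 7.31 CPM in WT and 0.982 to 2.1 CPM in KO (-1.91 log2). LEF1, a partner of beta-catenin, started higher in KO (3.98 to 10.9 CPM) than in WT (1.32 to 2.4 CPM) and overlapped at day 3 (-2.85 log2, adjusted p 0.0145). DKK3, of the Dickkopf family, reached 31 to 54.8 and 96.9 to 151 CPM (1.43 log2).

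BMP and TGF-beta genes had 2 called higher and 5 lower of 30 (median -1.17 log2). The 7 calls were 4 without KO day-3 replicate 1 and 11 without KO day-3 replicate 4. Besides BMP3, BMP4 ended at 2.52 to 4.84 CPM in WT and 0.542 to 1.14 CPM in KO (-2.87 log2, SE 0.64, adjusted p 0.00396). GDF11, a TGF-beta family ligand that restrains neurogenesis, was level in WT (45.5 to 55.7 CPM at day 3) and reached 82.4 to 137 CPM in KO (0.93 log2, SE 0.22, adjusted p 0.00736). FGF and receptor tyrosine kinase genes had 6 called higher and 2 lower of 29 (median 0.68 log2), and 5 calls without KO day-0 replicate 4. NRG1, a ligand of the ERBB receptors, reached 8.34 to 13.7 CPM in WT and 123, 80, 74.4 and 55.5 CPM in KO (2.30 log2, SE 0.40, adjusted p 0.000412). The feedback inhibitors DUSP4 and SPRY2 moved down in WT, to 7.74 to 13.6 and 13.6 to 19.3 CPM, and stood at 54.1 to 89.7 and 31.4 to 54.5 CPM in KO at day 3 (1.97 and 1.41 log2). PDGFRA, a growth factor receptor also used as a marker of the oligodendrocyte lineage, reached 4.28 to 11.1 CPM in WT and 48.6 to 88.8 CPM in KO (2.45 log2, SE 0.57, adjusted p 0.00573).

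The clock list had 3 of 19 called lower and 0 higher (median -0.23 log2, a sign that turned in some settings; unadjusted, 6 and 0; DESeq2, 3 and 0). PER3, a period gene, was steady in WT at 15.3 to 17.1 CPM and then 13.8 to 24.1 CPM, and in KO went from 12.7 to 15.3 CPM to 3.26, 4.97, 4.03 and 5.91 CPM (-1.67 log2, SE 0.31, adjusted p 0.000682). BHLHE41, a repressor of clock transcription, ended at 2.15 to 3.84 CPM in WT and 0.0718 to 0.395 CPM in KO (-3.82 log2). RAI1 has been studied as a regulator of clock genes, and the clock itself was not followed over the hours of a day in this design. Epithelial junction genes had 1 called higher and 4 lower of 21 (median -1.01 log2), and the 5 calls were 2 without KO day-0 replicate 1 or KO day-3 replicate 1. They were 3 without KO day-3 replicate 3, WT day-0 replicate 2, WT day-3 replicate 1 or WT day-3 replicate 4. In the list of unfolded protein and amino acid stress, 1 was called higher and 2 lower of 22 (13.6%, beside 8.55% over all genes). The median was -0.47 log2, a sign that turned in some settings. The 2 lower ones were enzymes of serine and glycine synthesis: PHGDH ended at 232 to 330 CPM in WT and 67.4 to 134 CPM in KO (-1.30 log2, adjusted p 0.0212) and SHMT2 at 179 to 248 and 65.7 to 116 CPM (-1.03 log2). PSAT1 of the same pathway, named after its values were seen, did not pass (-1.03 log2, adjusted p 0.0735). Among imprinted genes, 4 of 22 were called higher, led by PEG10, which went from 349 to 444 CPM to 93.6 to 174 CPM in WT and from 389 to 567 CPM to 415 to 659 CPM in KO (1.74 log2, SE 0.33, adjusted p 0.000864). Without single libraries 1 to 5 of the imprinted genes were called, and it was 1 without KO day-0 replicate 4, WT day-0 replicate 2, WT day-3 replicate 1 or WT day-3 replicate 3.

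Several lists showed no call by edgeR. Of 19 pluripotency factors none was called (1 higher and 1 lower unadjusted; DESeq2, 0), and POU5F1 went from a mean of 352 to 10.4 CPM in WT and from 391 to 2.33 CPM in KO (-2.30 log2, SE 1.21, adjusted p 0.26). Of 29 cholesterol and fatty acid genes 0 were called (4 higher and 1 lower unadjusted; DESeq2, 1 and 1), of 22 glycolysis genes 0 (1 and 0; DESeq2, 0), and of 21 retinoic acid genes 0 (0 and 1; DESeq2, 0 and 1). All 33 cytosolic ribosomal protein genes had negative values (median -0.58 log2) with 0 called (0 higher and 1 lower unadjusted; DESeq2, 0). Unlike these lists, the BAF list had calls, with 2 of 23 higher (8.70%), near the 8.55% called over all genes. That count was 1 without each of KO day-0 replicates 1 and 4, KO day-3 replicate 1, WT day-0 replicate 2 and WT day-3 replicate 1.

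Markers of cell types other than stem cells and neurons were summed as well. Fibroblast and mesenchyme markers (0 of 8 called; 2 higher and 1 lower unadjusted; DESeq2, 1 higher) summed to 459 to 1275 CPM in WT and 423 to 1471 CPM in KO at day 0, and to 224 to 524 and 72.7 to 241 CPM at day 3. Mesoderm and muscle markers summed to 10.9 to 22.1 CPM in WT and 16.7 to 40.6 CPM in KO at day 0, and to 122 to 336 and 114 to 423 CPM at day 3. Of these markers 1 of 11 was called (9.09%), near the 8.55% over all genes. Most of the day-3 sums came from TNNI1 (means of 197 CPM in WT and 128 CPM in KO) and ACTC1 (30.3 and 102.5 CPM at day 3). Astrocyte and oligodendrocyte markers summed to 77.7 to 112 CPM in WT and 129 to 164 CPM in KO at day 0. At day 3 they summed to 42.9 to 49.0 and 105 to 168 CPM, where PDGFRA alone gave 48.6 to 88.8 CPM of the KO sum. The KO sums were thus already above the WT ones at day 0. Of 6 endothelial markers 2 were called higher and 1 lower. Their sums were 89.7 to 132 CPM in WT and 95.3 to 205 CPM in KO at day 0. Both genotypes were lower at day 3, at 9.55 to 25.7 and 31.4 to 56.0 CPM. KDR, the one called lower, rested on WT day-3 replicate 1, with 19.7 CPM beside at most 0.0957 CPM in the other 3, and without that library its value turned from -5.41 to 1.17 log2 (adjusted p 0.625). The endothelial calls were then 1 in place of 3. HBB and HBG1 of blood and KRT14 and KRT1 of epidermis were at 0 in all 16 libraries. The part of such cells in the results was not tested.

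At day 7, in libraries that the difference of changes did not use, part of the genotype difference at these genes was still found. The comparison is KO minus WT at day 7, for which 17.3% of all tested genes were called higher and 18.5% lower. These shares were not matched for level to the genes below. Of the 1329 genes called higher, 555 (41.8%) were higher in KO at day 7, 166 (12.5%) were lower and 608 did not pass. Of the 789 called lower, 296 (37.5%) were lower in KO at day 7, 87 were higher and 406 did not pass. The 851 genes called the same way on both were 563 without KO day-3 replicate 1 and 1314 without KO day-3 replicate 4. They were 1707 with the block within each day, and 41 and 61 by limma at pseudocounts of 1 and 0.1. Of the 24 genes with the largest values, NPTX1 (2.22 log2) and ASIC4 (2.79 log2) were again higher, and BMP3, CD9, MICA, ADSS2, CEBPD and RASSF8 again lower, from -4.96 log2 for CEBPD to -0.48 log2 for ADSS2. DCC, so far apart at day 3, stood at means of 200 CPM in WT and 202 CPM in KO (0.01 log2, SE 0.35, adjusted p 0.984). A reversal was measured at LDB3, with means of 142 and 13.8 CPM (-3.37 log2, adjusted p 1.28e-07), at KLHL35, with 221 and 30.1 CPM (-2.87 log2), and at ADAMTS5, with 19.8 and 1.4 CPM (-3.82 log2).

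Lists differed in the same way. The proneural cascade, called higher at 12 of 18 genes over the first 3 days, had 9 called lower and 4 higher at day 7, with NEUROD1 at -5.18 log2 and NEUROD4 at -2.97 log2, while the pan-neuronal list had 9 higher and 0 lower of 22. DNA replication had 14 lower and 2 higher of 37 at day 7, mitosis 34 lower of 38, and the ribosomal proteins 32 lower of 33. The plot of both differences for the 24 genes shows that the day-7 values of the 12 positive genes spread over both signs, while 9 of the 12 negative genes stayed below 0.

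**Figure D4:**
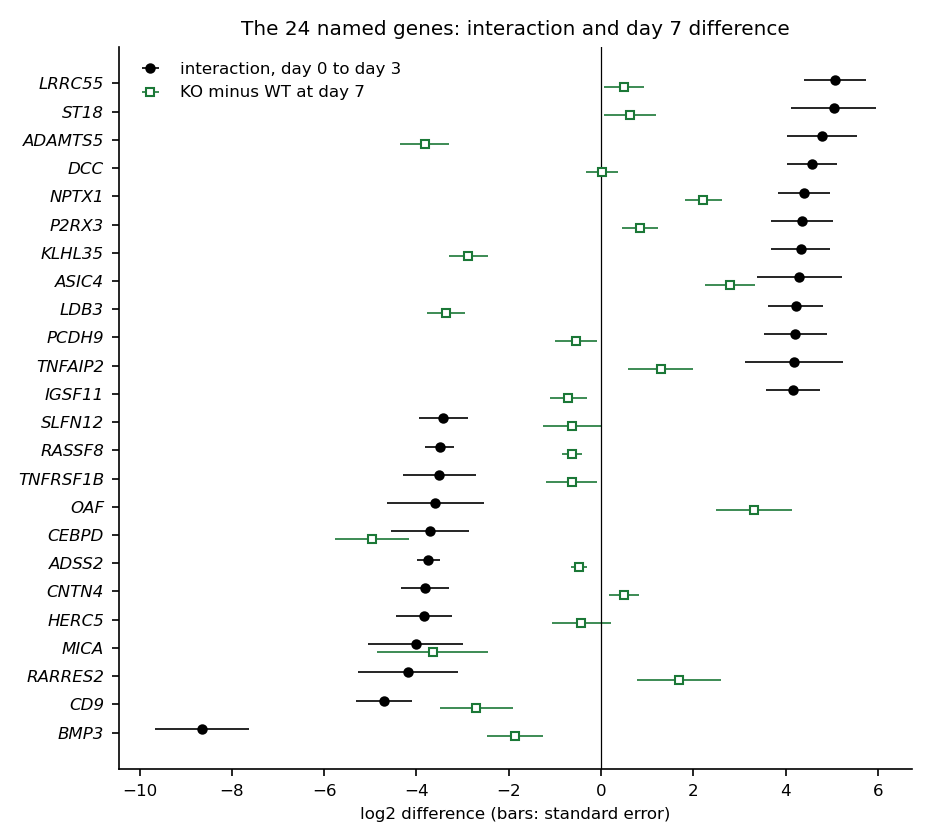
For each of the 24 genes with the largest values in either direction (rows), the difference of changes from day 0 to day 3 (filled circles) and KO minus WT at day 7 (open squares) on 1 log2 axis, with bars of 1 SE. The circles of LDB3, KLHL35 and ADAMTS5 lie above 4 and their squares below -2, and the square of DCC lies at 0.01.

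The change in KO was also set against that in HET cells, which carry the edit on 1 allele. This comparison shares the KO libraries, so its values stand beside the others. edgeR called 61 genes, 35 higher in KO (0.141% of tested genes) and 26 lower (0.105%), and the count was 34 without KO day-3 replicate 1 or KO day-0 replicate 3, 40 without KO day-0 replicate 1 and 102 without KO day-3 replicate 4. DESeq2 called 245, the covariate of small RNA share gave 161, the block within each day 279 and limma on log2(TPM + 0.1) 26. Of the 24 genes, ADAMTS5 (3.43 log2, adjusted p 0.0261) and CD9 (-2.75 log2, adjusted p 0.0338) passed. At some of the most negative genes the means of both mutants lay near each other. ADSS2 went from a mean of 91.6 to 34.9 CPM in HET, which differed from the KO change by 0.17 log2 (adjusted p 0.854), and RASSF8 from 81.2 to 35.5 CPM (0.02 log2). BMP3 stood at a mean of 3.23 CPM in HET at day 0 and 0.103 CPM at day 3, and CNTN4 went from 1.21 to 5.3 CPM (0.08 log2, adjusted p 0.986). For these 4 the WT day-3 mean was the highest of the 3 genotypes; a difference that misses the threshold does not show that the mutants changed alike. Other genes stood between the genotypes at day 3, such as DCC, with 3.63 CPM in WT, 19.6 CPM in HET and 78.4 CPM in KO, and P2RX3, with 44.6 CPM in HET. LRRTM3, at 0.198 CPM in HET at day 3, was high in KO only (7.25 log2 against HET, adjusted p 4.7e-08).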

How the data were processed

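RNA of H9 cells (WT, HET and KO at RAI1; days 0, 3 and 7; 4 libraries a group, 36 in all) was sequenced after ribosomal depletion. The authors deposited expected counts per gene, whole numbers in 100% of values, beside TPM and FPKM tables; the deposited FPKM was proportional to TPM within a library and served no test. The submitters' processing notes name GRCh38, cutadapt 4.8, FastQC 0.11.8, MultiQC 1.20, STAR 2.7.8a and RSEM 1.3.3; the annotation and the use of strand in counting are not given in the sources used here, so overlapping genes on opposite strands cannot be separated.

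From the deposited expected counts, edgeR 4.0.16 in R 4.3.3 gave the difference of changes and its standard error by its quasi-likelihood test. Genes were kept by filterByExpr and scaled by TMM, and 9 group means were fitted over all 36 libraries (Benjamini-Hochberg over 24764 genes, threshold 0.05). Of 62714 features 4 were reporter rows (at most 0.0171% of a library), left out of library sizes and tests. Gene names and spans came from GENCODE 29, which matched 92.9% of 62710 identifiers. The 16 libraries held 27.2 to 51.3 M counts (M, 1e6), so that 3 counts, taken as the floor, were 0.0553 to 0.101 CPM. RefSeq promoter windows (GRCh38.p14) were searched by script.

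Genes named were RAI1, the 12 highest and 12 lowest values among called genes with a symbol, at least 5 CPM in a group and over 3 counts in every library, 5 a side with a group at the floor, and up to 4 called members of each list by adjusted p; others are marked where they appear. Members and lists (1174 entries, 1100 tested) were chosen with earlier results of these data known. Same-numbered WT and KO libraries deviated together at day 0 (r 0.137 to 0.335 in all 4 pairs) and in 3 of 4 pairs at day 3 (0.13, 0.347 and 0.433, beside 0.057 for number 3). Same-numbered libraries of a genotype at day 0 and day 3 hardly deviated together, with r from -0.018 to 0.083. Since not every pair passed 0.1, the main fit had no block, and a block within each day was added as an alternative. Alternatives were DESeq2 1.42.0, other scalings and filters, limma 3.58.1 on log2 of the authors' deposited TPM plus 1 or 0.1, replicate blocks, a covariate and leaving out each library. On counts simulated for this contrast over 24764 genes with 200 changed, edgeR recovered 26% of changes of 1 log2 and 83% of changes of 2 log2, with 4.4% false among its calls. DESeq2 recovered 35% and 88%, with 10.2% false. The simulated libraries varied independently, and only KO day 3 was changed, at few genes. Same-numbered libraries that deviate together were not simulated, so these rates need not hold for the data. Figures were drawn with matplotlib 3.10.9 in Python 3.11.15. Some results are not reported here.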

Additional observations from a re-analysis of the deposited data

Results flagged for a closer look

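The change from day 0 to day 3 differed between KO and WT, by the interaction term of edgeR's fit, at 2118 genes, and between KO and HET at 61. Among the CPM values of the genes named by size, 139 groups of 4 libraries were searched for a library far from the other 3, by the gap to its neighbour over the group's range. There were 14, where chance gives about 7.0 at 5%.

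KO day-3 replicate 1 held 28.4 CPM of ADAMTS5, beside 6.82 to 9.4 in the others, and 0.623 CPM of OAF, beside 0.152 to 0.196. KO day-0 replicate 1 held 23.4 CPM of OAF, beside 2.01 to 3.23, and 7.74 CPM of HOXB2, beside 0.572 to 1.09. WT day-3 replicate 4 held 61.5 CPM of TNFRSF1B, beside 21.8 to 25.2, and 1.92 CPM of TNFAIP2, beside 0.479 to 0.694. MICA stood at 1.8 CPM in KO day-3 replicate 4, beside 0.168 to 0.369, and PTGDS at 25.7 CPM in KO day-3 replicate 3, beside 11.5 to 12.5. OAF stood at 3.66 CPM in WT day-0 replicate 2, beside 1.92 to 2.1, and GDF10 at 0.203 CPM in WT day-3 replicate 1, beside 0.105 to 0.12. The rest were near the floor: ASIC4 at 0.56 CPM in KO day-0 replicate 3 (others 0.27 to 0.303), NRN1 at 0.0471 CPM in WT day-0 replicate 3 (others 0.138 to 0.15) and 0.101 CPM in KO day-0 replicate 2 (others 0), and LINC01515 at 0.0236 CPM in WT day-0 replicate 3 (others 0). None of the causes was tested.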

How the results depend on the processing

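The count of 2118 genes became 2823 with DESeq2, 1949 with library size alone (51.1% higher, beside 62.7%), 1527 without a filter, 2351 at a mean of at least 1 CPM, 2835 with only the 16 libraries and 2672 with the small RNA share as a covariate. limma called 321 on log2(TPM + 1) and 323 on log2(TPM + 0.1) (74.9% higher), where the median of all genes stood at 0.165 and 0.354 log2. Leaving out 1 library gave 1334 to 3175. The count of these genes called at day 7, 851, was 61 and 41 by limma at pseudocounts 0.1 and 1, and 563 to 1314 without 1 library. The 61 genes of KO against HET became 245 with DESeq2, 161 with the covariate and 26 by limma at 0.1, and 34 to 102 without 1 library. With the replicate block the counts were 2546, 1079 and 80, and with a replicate block within each day, chosen after seeing the data, 3718, 1707 and 279. Within a day, same-numbered WT and KO libraries were closest in 4 of 4 pairs at day 0 and 3 of 4 at day 3.

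Called in all 28 settings compared were 102 genes higher and 25 lower, and in all 16 fits without 1 library 709 and 399. The sign turned for LINC02693 (0.29 log2 by limma at pseudocount 1) and KDR (1.17 log2 without WT day-3 replicate 1, and down to -5.85 log2 without other libraries). The causes were not tested. Depth limits genes near 3 counts, where fitted folds are no bounds.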
